A study of Mus musculus with 15 samples.

Results

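Of the 754 genes counted on the mouse myeloid panel, 29 have a symbol that begins with Tlr, Nlr, Nod, Clec, Trem, Fcgr, Fcer or Sigl, and these pattern recognition and Fc receptors are described here across 4 groups of bone marrow-derived macrophages (BMDMs). They comprise 12 Toll-like receptors, 3 NOD-like receptors, 4 C-type lectins, 2 members of the TREM family, 6 Fc receptors and 2 Siglecs. The rule, which uses symbols and no measured values, also covers Lilr, Pilr and Msr, and none of the 754 genes had such a name.

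RNA was counted on the NanoString nCounter, an assay in which a colour-coded probe binds each target RNA and is counted without amplification. The study asked whether nanoparticles (NPs) that deliver IRF5 mRNA move IL4-conditioned macrophages towards the state of inflammatory macrophages. All BMDMs were grown from femoral marrow with M-CSF. The MPLA group (4 libraries) held BMDMs kept for 4 days with monophosphoryl lipid A, a TLR4 agonist, at 20 ng/mL, and was the M1-like standard. The IL4 group (4 libraries) was kept for 4 days with IL-4 at 20 ng/mL and was the M2-like standard. BMDMs conditioned with the same IL-4 dose made up the IRF5-NP group (3 libraries, numbered 1, 2 and 4) and the eGFP-NP group (4 libraries), which met 1 µg of the respective NPs for 1 h by the labels. According to the study's methods, mRNAs for the kinase IKKβ and for eGFP were packed into the IRF5 NPs too, the brightest transfected cells were sorted and returned to a lower dose of IL-4 before RNA isolation, and the NP amount was a different one given as mRNA; which amount applies is not settled. The standards are not described as sorted. The labels give no strain, age or animal for any library, so the p-values measure the spread between these libraries, which may be technical.

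Pattern recognition receptors detect conserved parts of microbes. Toll-like receptors sit at the cell surface (lipids, lipoproteins, flagellin) or in endosomes (nucleic acids), NOD-like receptors detect peptidoglycan fragments or danger signals in the cytosol, and several C-type lectins bind sugars of fungi. Fc receptors bind the constant part of antibodies and either activate the cell or, in the case of Fcgr2b, restrain it, while TREM receptors pass signals through the adaptor Tyrobp. In macrophages, type I and II interferons are known to raise Fcgr1, Fcgr4 and Siglec1, and IL-4 is known to raise Clec7a, the receptor of fungal beta-glucan also called dectin-1.

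For 4 genes, the 250 bases before the transcription start are shown because they were called between the standards whichever single library was left out, Clec7a, Tlr8 and Fcgr3 as lower and Trem1 as higher in MPLA than in IL4. The sequences are those of RefSeq on GRCm38.p6, read 5′ to 3′ on the strand of the gene, and capitals mark 4 motifs that were searched on both strands: ISRE-type (GAAANNGAAA), GAS-type (TTCNNNGAA), STAT6-type (TTCNNNNGAA) and PU.1-type (GAGGAA). Clec7a lay at chr6:129472780-129473029 (minus strand; RefSeq also lists a start close by), Tlr8 at chrX:167264330-167264579 (minus), Trem1 at chr17:48232489-48232738 (plus) and Fcgr3 at chr1:171059395-171059644 (minus; a start close by is listed as well).
Clec7a: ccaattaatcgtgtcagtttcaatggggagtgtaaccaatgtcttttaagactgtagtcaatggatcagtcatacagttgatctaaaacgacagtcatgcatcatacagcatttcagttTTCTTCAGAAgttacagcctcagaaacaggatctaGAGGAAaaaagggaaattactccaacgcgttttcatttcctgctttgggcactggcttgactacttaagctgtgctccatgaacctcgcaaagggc
Tlr8: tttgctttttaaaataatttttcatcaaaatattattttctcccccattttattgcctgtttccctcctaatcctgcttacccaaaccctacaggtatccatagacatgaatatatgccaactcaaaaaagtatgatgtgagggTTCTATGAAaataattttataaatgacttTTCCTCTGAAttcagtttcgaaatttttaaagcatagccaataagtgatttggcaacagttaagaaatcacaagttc
Trem1: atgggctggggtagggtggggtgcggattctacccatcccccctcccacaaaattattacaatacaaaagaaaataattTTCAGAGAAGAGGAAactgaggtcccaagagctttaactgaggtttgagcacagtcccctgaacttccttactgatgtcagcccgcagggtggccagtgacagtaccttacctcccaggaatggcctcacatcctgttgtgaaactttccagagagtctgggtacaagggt
Fcgr3: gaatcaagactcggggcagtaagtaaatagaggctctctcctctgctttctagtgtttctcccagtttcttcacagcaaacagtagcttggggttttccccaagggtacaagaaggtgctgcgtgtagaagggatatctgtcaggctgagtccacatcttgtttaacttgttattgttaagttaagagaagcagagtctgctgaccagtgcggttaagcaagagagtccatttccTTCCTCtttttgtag
The Clec7a window held a STAT6-type match that starts 131 bases and a PU.1-type match that starts 96 bases before the gene. In Tlr8 a GAS-type match starts 106 bases before the gene, and a STAT6-type and a PU.1-type match share the letters that start 77 bases before it. Trem1 had a GAS-type match at 171 bases directly followed by a PU.1-type match at 162 bases, and Fcgr3 had a PU.1-type match at 15 bases and none of the other 3 motifs. RefSeq gave 34 windows for 26 of the receptors, some with several starts and overlapping windows, and 32851 windows over all genes. Counted by window, STAT6-type letters were in 6 of the 34 (17.6%; Clec5a, Clec7a, Fcer2a, Nlrp3, Tlr8) and 5.85% of all, GAS-type letters in 5 (14.7%; Fcgr1, Nod1, Tlr1, Tlr8, Trem1) and 7.02%, ISRE-type letters in 3 (8.82%; Fcgr4, Tlr6, Tlr11) and 2.98%, and PU.1-type letters in 17 (50%) and 23.3%. A match is a run of letters and not a binding site. Several receptors are neighbours: Fcgr2b, Fcgr4 and Fcgr3 follow each other on chromosome 1, Tlr1 and Tlr6 on chromosome 5 and Tlr7 and Tlr8 on chromosome X, with no protein-coding gene between them.

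Levels are given as log2 CPM (each count as a share of its library's total, scaled with the TMM method), and differences on the log2 scale; because each gene has its own probe, levels are compared between libraries and not between genes. Background was set in each library at the mean + 2 SD of the 8 negative control probes, or 19.7 to 34.9 counts. Of the 29 receptors, 16 exceeded it in all 15 libraries, 11 in some and 2 (Clec1b and Fcer1a) in none. The receptors took 1.17% to 1.22% of all counts in MPLA, in IL4 the range was 1.63% to 2.86%, and for the IRF5-NP and eGFP-NP libraries it was 1.04% to 2.39% and 1.12% to 2.15%.

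Libraries of one group were not alike, and this bears on every comparison. Gene counts totalled 738305 to 1784833 per library, except in IRF5-NP 4, which had 266169 and a background of 6.17 on the log2 CPM scale (3.87 to 5.12 in the others). In counts that background was 32.4, inside the range of the other libraries. The positive control probes had a geometric mean of 887 to 2813 counts, lowest in IL4 2 and 2412 in IRF5-NP 4. The counts of eGFP-NP 1 and 2 were close to sampling noise: over the 522 genes with at least 40 counts in the pair, the chi-square per degree of freedom was 1.09 (p = 0.0817), and over the 436 with at least 100 counts it was 1.15 (p = 0.0162). By the former they were summed and counted as 1 sample, eGFP-NP 1-2. Nearly identical, though beyond sampling noise, were MPLA 1 and 4 (2.56), MPLA 2 and 3 (1.98), IRF5-NP 1 and 2 (1.63) and eGFP-NP 3 and 4 (1.37), while all other pairs of a group were at 41.4 or more. Of the 10 macrophage genes, 9 exceeded background in every library but IRF5-NP 4, where 8 did (Aif1 never did), and their mean level was 10.02 to 10.16 in MPLA, 9.91 to 10.85 in IL4 and, for the NP libraries, 9.18 to 10.95 (IRF5-NP) and 9.42 to 10.93 (eGFP-NP). The 7 genes of a fibroblast or stromal list (Col1a2, Col3a1, Pdgfra, Pdgfrb, Fn1, Timp3, Cdh11) had a mean level of 12.51 to 12.67 in MPLA and of 10.94, 11.90, 4.67 and 10.08 in IL4 1 to 4, 4.15, 4.00 and 10.95 in IRF5-NP 1, 2 and 4 and 4.02, 11.53 and 11.60 in eGFP-NP 1-2, 3 and 4. The list was thus high in all MPLA libraries and near background in IL4 3, IRF5-NP 1 and 2 and eGFP-NP 1-2 only. Its part in the receptor levels was not tested beyond the fits with its mean level as a covariate. Every MPLA library was above every other library in this list, so those fits extrapolate in each comparison with MPLA. In bulk RNA, fewer cells of a type and less RNA per cell cannot be told apart.

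**Figure D1:**
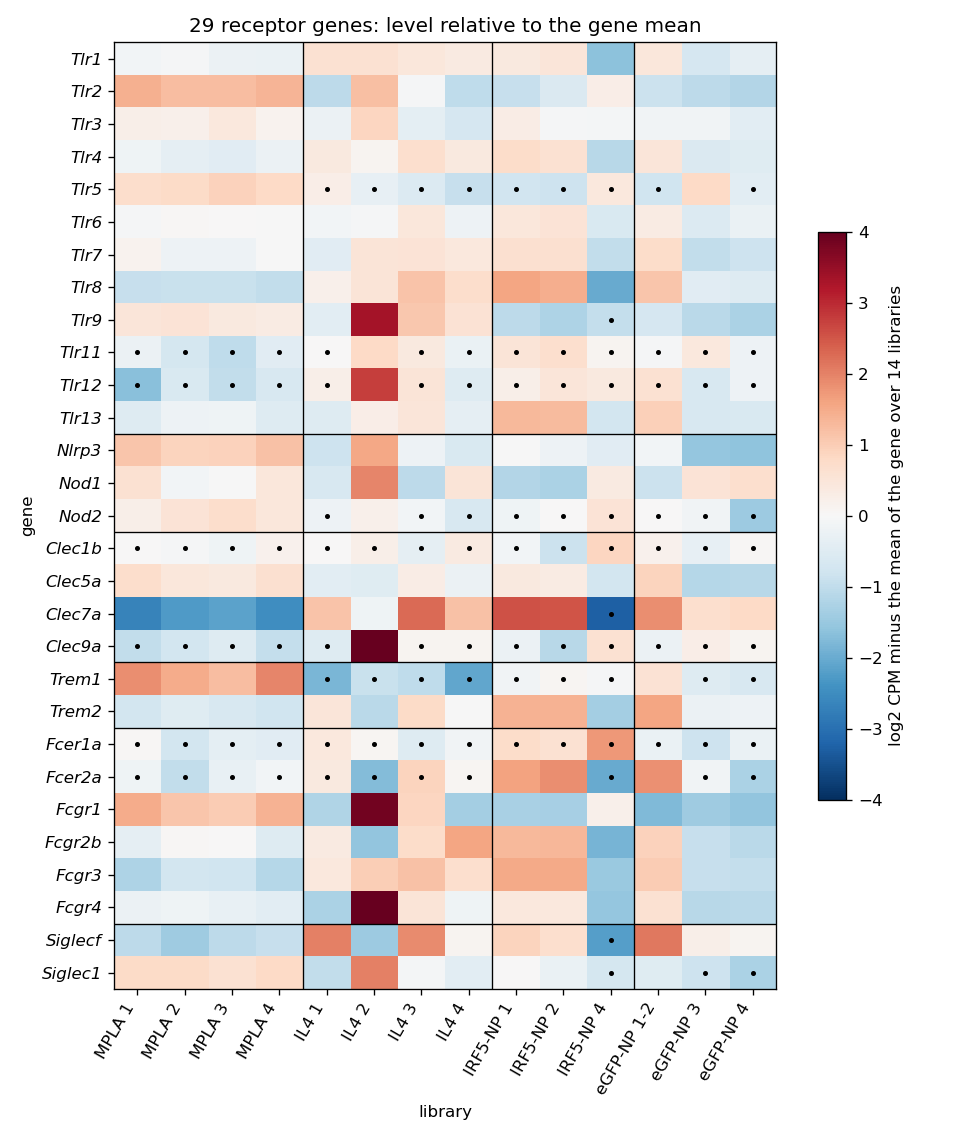
Heat map of the 29 receptor genes (rows, grouped by family) in 14 libraries (columns, grouped by treatment); colour is log2 CPM minus the mean of the gene over the libraries, and a black dot marks a level at or below the background of its library. Clec7a is low in all 4 MPLA libraries and in IRF5-NP 4, and Fcgr1, Fcgr4, Tlr9 and Clec9a stand out in IL4 2.

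Between the 2 standards, the C-type lectin Clec7a, the IgG receptor Fcgr3 and the endosomal receptor Tlr8 were lower in MPLA than in IL4, and Trem1, which amplifies inflammatory signals of myeloid cells, was higher. By edgeR's quasi-likelihood test with Benjamini-Hochberg adjustment over all 754 genes, 11 of the 29 receptors (37.9%) differed at an adjusted p under 0.05, against 26.4% of all genes. Of these, 4 were higher in MPLA (Trem1, Tlr5, Clec5a and Nod2; background 12.2%) and 7 were lower (Clec7a, Siglecf, Tlr12, Fcgr3, Tlr8, Tlr4 and Tlr1; background 14.2%). The median difference over the 29 receptors was -0.54 and that over all genes -0.05. In 11 receptors the 2 groups did not overlap, against 37.3% of all genes; they were the genes above without Siglecf and with Tlr2. The split of the calls depended on the scaling: relative to TMM, scaling to 18 housekeeping genes, to the median gene and to the macrophage list moved the median difference of all genes by -0.25, -0.55 and 0.26, and called 1 receptor higher and 6 lower (background 5.97% and 15.4%), 1 higher and 12 lower (6.9% and 26.9%), and 5 higher and 3 lower (10.5% and 7.56%).

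Clec7a had the widest separation among the receptors with a measured level in both groups. Clec7a stood at 6.65, 7.04, 7.18 and 6.82 in MPLA 1 to 4 and at 10.46, 9.13, 11.58 and 10.47 in IL4 1 to 4, and at 11.85, 11.82 and 6.06 in IRF5-NP 1, 2 and 4 and 11.18, 9.99 and 10.11 in eGFP-NP 1-2, 3 and 4. Every MPLA library lay below every IL4 library, and 30 counts in IRF5-NP 4 were under its background. The MPLA mean was 6.92 ± 0.23 (SD, n = 4) and the IL4 mean 10.41 ± 1.00 (SD, n = 4), a difference of -3.70 ± 0.49 (SE) or 13-fold (adjusted p = 0.00198).

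Trem1 gave the opposite picture. Trem1 stood at 6.44, 6.08, 5.83 and 6.55 in MPLA 1 to 4 and at 2.75, 3.70, 3.57 and 2.52 in IL4 1 to 4, and at 4.44, 4.67 and 4.53 in IRF5-NP 1, 2 and 4 and 5.16, 4.09 and 3.94 in eGFP-NP 1-2, 3 and 4. Its counts in IL4 were 6, 16, 11 and 7, all under background, while those in MPLA ran from 106 to 174. The fitted difference was 3.27 ± 0.36 (adjusted p = 0.000702), and against the background of the IL4 libraries Trem1 was at least 3.34-fold higher in MPLA. Of 6 neutrophil genes, a cell type that also uses Trem1, Ly6g and S100a9 exceeded background in no library, Mpo, Elane and Cxcr2 in 1 of 14 each and S100a8 in 8 of 14, and their part in this result was not tested. Its chromosomal relative Trem2, a lipid-binding receptor of tissue macrophages, went the other way without passing the test. Trem2 stood at 10.91, 11.16, 11.00 and 10.87 in MPLA 1 to 4 and at 12.15, 10.57, 12.42 and 11.63 in IL4 1 to 4, and at 13.03, 13.04 and 10.29 in IRF5-NP 1, 2 and 4 and 13.24, 11.42 and 11.44 in eGFP-NP 1-2, 3 and 4. The MPLA libraries lay between IL4 2, the lowest, and the other 3 IL4 libraries, and the difference was -0.83 ± 0.38 (adjusted p = 0.137). Without IL4 2 it was -1.09 ± 0.21 (adjusted p = 0.00672).

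Fcgr3, a low-affinity activating IgG receptor, was lower in MPLA. Fcgr3 stood at 9.33, 9.83, 9.79 and 9.45 in MPLA 1 to 4 and at 10.99, 11.57, 11.74 and 11.25 in IL4 1 to 4, and at 12.08, 12.11 and 9.08 in IRF5-NP 1, 2 and 4 and 11.60, 9.67 and 9.62 in eGFP-NP 1-2, 3 and 4. All 4 MPLA libraries were below all IL4 libraries, and IRF5-NP 4, eGFP-NP 3 and eGFP-NP 4 were at or below the level of MPLA. The difference between the standards was -1.77 ± 0.24 (adjusted p = 0.00217), or 3.42-fold. Tlr8, a relative of the endosomal RNA receptor Tlr7, was likewise lower in MPLA. Tlr8 stood at 9.16, 9.18, 9.17 and 9.07 in MPLA 1 to 4 and at 10.27, 10.57, 11.22 and 10.76 in IL4 1 to 4, and at 11.64, 11.53 and 8.05 in IRF5-NP 1, 2 and 4 and 11.17, 9.63 and 9.55 in eGFP-NP 1-2, 3 and 4. The MPLA mean was 9.15 ± 0.05 (SD, n = 4) and the IL4 mean 10.71 ± 0.40 (SD, n = 4), and the difference was -1.57 ± 0.23 (adjusted p = 0.00275). Its neighbour Tlr7, a receptor of single-stranded RNA, was not called (-0.34 ± 0.25, adjusted p = 0.33), with 8.94 to 9.26 in MPLA and 8.68 to 9.68 in IL4.

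Tlr4 and Tlr1 were also lower in MPLA, by less than Clec7a, Fcgr3 and Tlr8. Tlr4, which binds lipopolysaccharide and the MPLA used here, was 9.43 to 9.69 in MPLA and 9.99 to 10.54 in IL4 (-0.68 ± 0.19, adjusted p = 0.0349). Tlr1, the partner of Tlr2 for triacylated lipoproteins, was 7.87 to 8.08 in MPLA and 8.48 to 8.73 in IL4 (-0.65 ± 0.18, adjusted p = 0.0319). For both genes every MPLA library was below every IL4 library. For Tlr6, the partner of Tlr2 for diacylated lipoproteins, the difference was -0.02 ± 0.19 (adjusted p = 0.944).

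Clec5a, a lectin-like receptor that also signals through Tyrobp, was higher in MPLA. Clec5a stood at 10.25, 9.99, 9.94 and 10.16 in MPLA 1 to 4 and at 9.10, 9.05, 9.84 and 9.31 in IL4 1 to 4, and at 9.92, 9.87 and 8.80 in IRF5-NP 1, 2 and 4 and 10.44, 8.38 and 8.43 in eGFP-NP 1-2, 3 and 4. The lowest MPLA library exceeded the highest IL4 library by little, and the difference was 0.76 ± 0.23 (adjusted p = 0.0402). With housekeeping and median scaling it was 0.53 and 0.10 and was not called, and with macrophage list scaling it was 1.03 and was called. Nod2, a cytosolic sensor of peptidoglycan, had 50 to 70 counts in MPLA and 21 to 35 in IL4, where only IL4 2 exceeded background, and was at least 1.28-fold higher in MPLA (adjusted p = 0.0492). Tlr5, the flagellin receptor, had 53 to 65 counts in MPLA and 12 to 24 in IL4, all of the latter under background, and was at least 1.46-fold higher in MPLA (adjusted p = 0.0187). Nod2 and Tlr5 were not called with housekeeping or median scaling, and both were called with macrophage list scaling. Tlr12, a sensor of protozoan profilin, had 7 to 17 counts in MPLA, none above background, and 20, 151, 23 and 16 in IL4, of which only that of IL4 2 exceeded background (adjusted p = 0.049). Without IL4 2 it was still called (adjusted p = 0.05) with no measured level in either group, so that no fold is given.

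**Figure D2:**
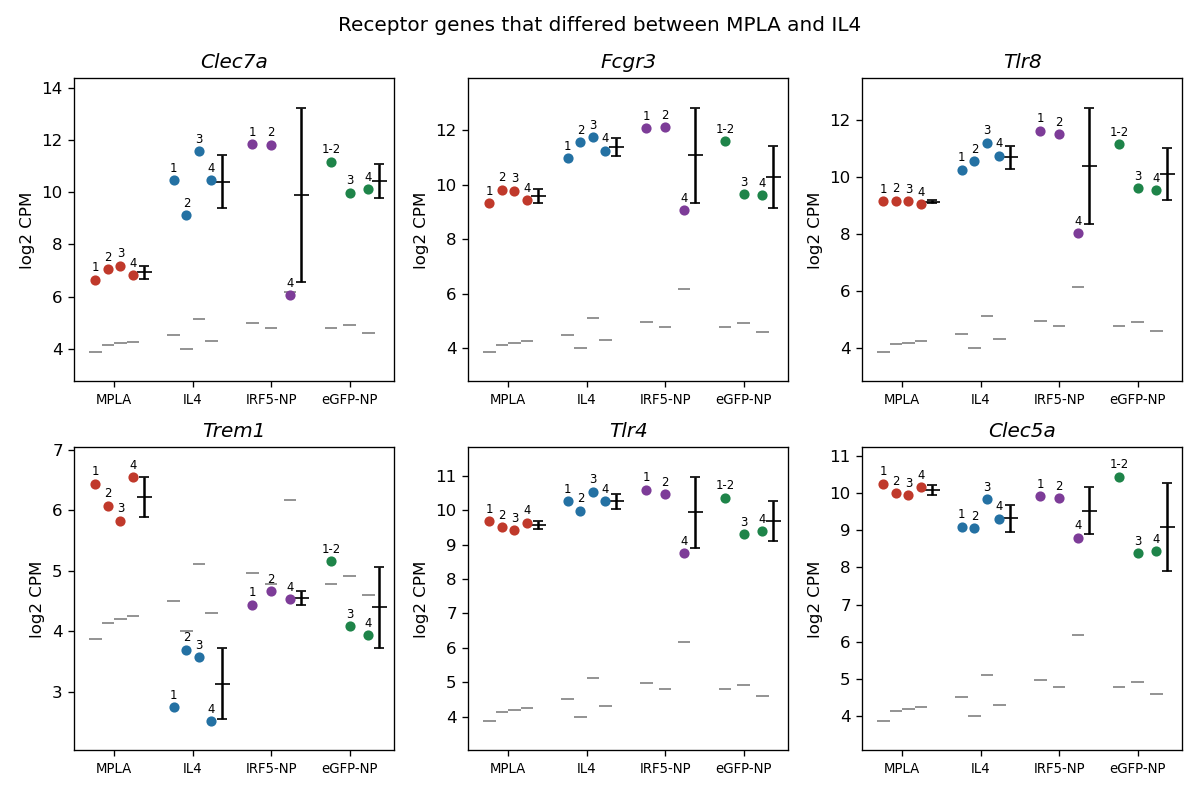
Levels of 6 receptor genes in each library (log2 CPM, 1 panel per gene); points carry the library number, grey dashes mark the background of the library, and black bars give the group mean ± SD. In all 6 genes the MPLA and IL4 points do not overlap, and for Trem1 all 4 IL4 points lie under their background.

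These calls depended on few libraries. Clec7a, Fcgr3, Tlr8 and Trem1 kept their calls when any 1 library of either standard was left out, whereas the other 7 receptors lost theirs when any 1 MPLA library was left out (4 calls each time). Without IL4 1, calls were also lost for Clec5a, Nod2, Siglecf, Tlr1, Tlr4 and Tlr12, without IL4 3 for Nod2, Siglecf and Tlr12, and without IL4 4 for Clec5a and Nod2. With the nearly identical MPLA libraries summed in pairs, only Trem1 was called (background 2.65%). When the mean level of the stromal list entered the fit as a covariate, 7 receptors were called (background 14.5%), Clec7a, Fcgr3, Tlr8 and Trem1 again among them.

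A second set of receptors was set apart by IL4 2, in which the high-affinity IgG receptor Fcgr1, the IgG receptor Fcgr4 and the DNA receptor Tlr9 reached levels found in no other library. Fcgr1 stood at 9.57, 9.19, 9.08 and 9.46 in MPLA 1 to 4 and at 6.87, 11.93, 8.94 and 6.72 in IL4 1 to 4, and at 6.76, 6.75 and 8.28 in IRF5-NP 1, 2 and 4 and 6.32, 6.65 and 6.48 in eGFP-NP 1-2, 3 and 4. Fcgr1 was thus 11.93 in IL4 2 and 8.94 or less in the other IL4 libraries, all of which were below MPLA. The mean level was higher in MPLA (9.33 ± 0.23, SD, n = 4) than in IL4 (8.61 ± 2.43, SD, n = 4), while the fit to the counts gave -0.79 ± 1.05 (adjusted p = 0.608), so that the sign depended on the scale. Without IL4 2 the difference was 1.5 ± 0.55 (adjusted p = 0.0641).

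Fcgr4, an activating receptor of intermediate affinity, had 16480 counts in IL4 2 and 265 to 859 in the other IL4 libraries. Fcgr4 stood at 8.92, 8.99, 8.84 and 8.73 in MPLA 1 to 4 and at 7.88, 13.53, 9.68 and 8.97 in IL4 1 to 4, and at 9.57, 9.56 and 7.59 in IRF5-NP 1, 2 and 4 and 9.76, 8.03 and 8.08 in eGFP-NP 1-2, 3 and 4. The difference of -2.80 ± 1.17 (adjusted p = 0.109) shrank to -0.11 ± 0.36 without IL4 2. Tlr9, the endosomal receptor of unmethylated DNA, showed the same library far above the rest. Tlr9 stood at 7.17, 7.22, 7.07 and 7.02 in MPLA 1 to 4 and at 6.25, 10.00, 7.78 and 7.25 in IL4 1 to 4, and at 5.64, 5.45 and 5.74 in IRF5-NP 1, 2 and 4 and 6.0, 5.60 and 5.43 in eGFP-NP 1-2, 3 and 4. All IRF5-NP and eGFP-NP libraries were below all libraries of both standards, and that of IRF5-NP 4 (24 counts) was under background. MPLA and IL4 differed by -1.37 ± 0.72 (adjusted p = 0.194), and by -0.08 ± 0.32 without IL4 2. Clec9a, a receptor for dead cells that marks a subset of dendritic cells, had 252 counts in IL4 2 and 4 to 17 counts in all 14 others, which were under background. The dendritic cell list of 4 genes had a mean level of 4.46 to 5.96 in IL4 against 3.49 to 3.92 in MPLA and 4.51 to 5.69 in the NP groups, its genes Flt3, Xcr1 and Ccr7 exceeded background in 1 of 14 libraries each, Itgax, which macrophages can also express, did in 13 of 14 (12 to 6215 counts), and its part in these values was not tested.

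For Tlr2, Nlrp3, Siglec1 and Tlr3, IL4 1, 3 and 4 were below MPLA, while IL4 2 was close to MPLA (Tlr2) or above it. Tlr2 stood at 8.30, 8.10, 8.09 and 8.23 in MPLA 1 to 4 and at 5.83, 8.07, 6.81 and 5.85 in IL4 1 to 4, and at 5.94, 6.28 and 7.13 in IRF5-NP 1, 2 and 4 and 5.99, 5.81 and 5.68 in eGFP-NP 1-2, 3 and 4. The groups did not overlap for this receptor of bacterial lipoproteins, by a narrow margin, and the difference was 1.28 ± 0.49 (adjusted p = 0.0872). Without IL4 2 it was 2.00 ± 0.26 (adjusted p = 0.00132). Nlrp3, the sensor of an inflammasome, was 8.45 to 8.73 in MPLA and 6.72, 9.09, 7.34 and 6.94 in IL4 1 to 4, giving 0.76 ± 0.51 (adjusted p = 0.301) with IL4 2 and 1.59 ± 0.19 (adjusted p = 0.000803) without it. Siglec1 and Tlr3 were likewise called without IL4 2 and not with it. Siglec1, a sialic acid receptor of macrophages, was 6.20 to 6.40 in MPLA and 4.61, 7.59, 5.50 and 5.18 in IL4, giving 0.15 ± 0.61 (adjusted p = 0.879) and 1.25 ± 0.22 (adjusted p = 0.00496). Tlr3, a receptor of double-stranded RNA, was 7.00 to 7.28 in MPLA and 6.65, 7.72, 6.48 and 6.20 in IL4, giving 0.26 ± 0.34 (adjusted p = 0.588) and 0.69 ± 0.17 (adjusted p = 0.0169).

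Siglecf, a Siglec known from eosinophils and alveolar macrophages, was high in IL4 1 and 3 and low in IL4 2. Siglecf stood at 5.21, 4.84, 5.19 and 5.32 in MPLA 1 to 4 and at 8.28, 4.81, 8.15 and 6.37 in IL4 1 to 4, and at 7.15, 6.93 and 4.06 in IRF5-NP 1, 2 and 4 and 8.35, 6.47 and 6.36 in eGFP-NP 1-2, 3 and 4. Its difference of -2.34 ± 0.69 passed the test (adjusted p = 0.0388), although IL4 2 was just below the MPLA libraries and the other IL4 libraries were above them; without IL4 2 it was -2.70 ± 0.43 (adjusted p = 0.00316). For the inhibitory receptor Fcgr2b IL4 2 was again the lowest, with 9.41 to 9.99 in MPLA and 10.30, 8.36, 10.67 and 11.53 in IL4 1 to 4 (-0.83 ± 0.56, adjusted p = 0.303; -1.16 ± 0.33 and adjusted p = 0.027 without IL4 2). Over all receptors, the fit without IL4 2 called 19 of 29, against 39.1% of all genes, with 8 higher in MPLA (background 18.8%) and 11 lower (background 20.3%). Of the 11, Clec9a, Fcer2a and Tlr12 were then under background in both groups and have no measured level.

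**Figure D3:**
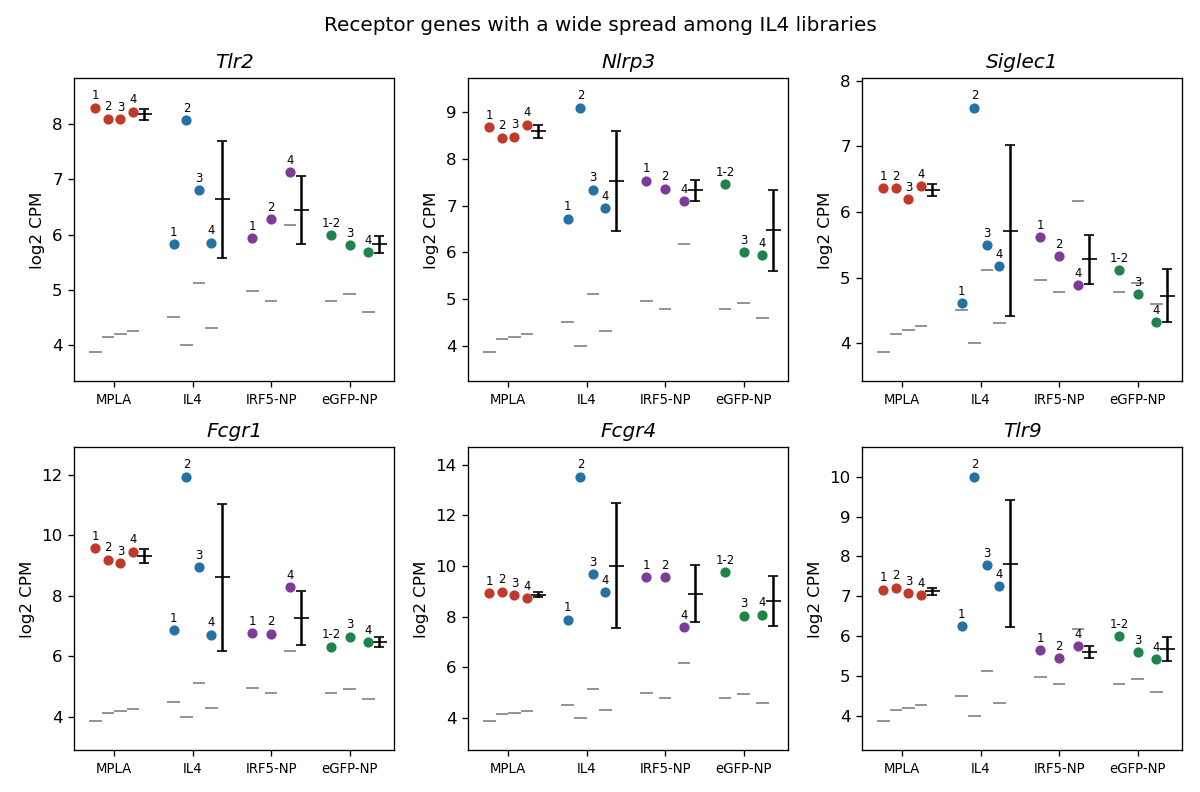
Levels of 6 receptor genes in each library (log2 CPM), drawn with library numbers, background dashes and group mean ± SD. IL4 2 is the highest IL4 library in every panel and the highest of all libraries for Nlrp3, Siglec1, Fcgr1, Fcgr4 and Tlr9.

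**Figure D4:**
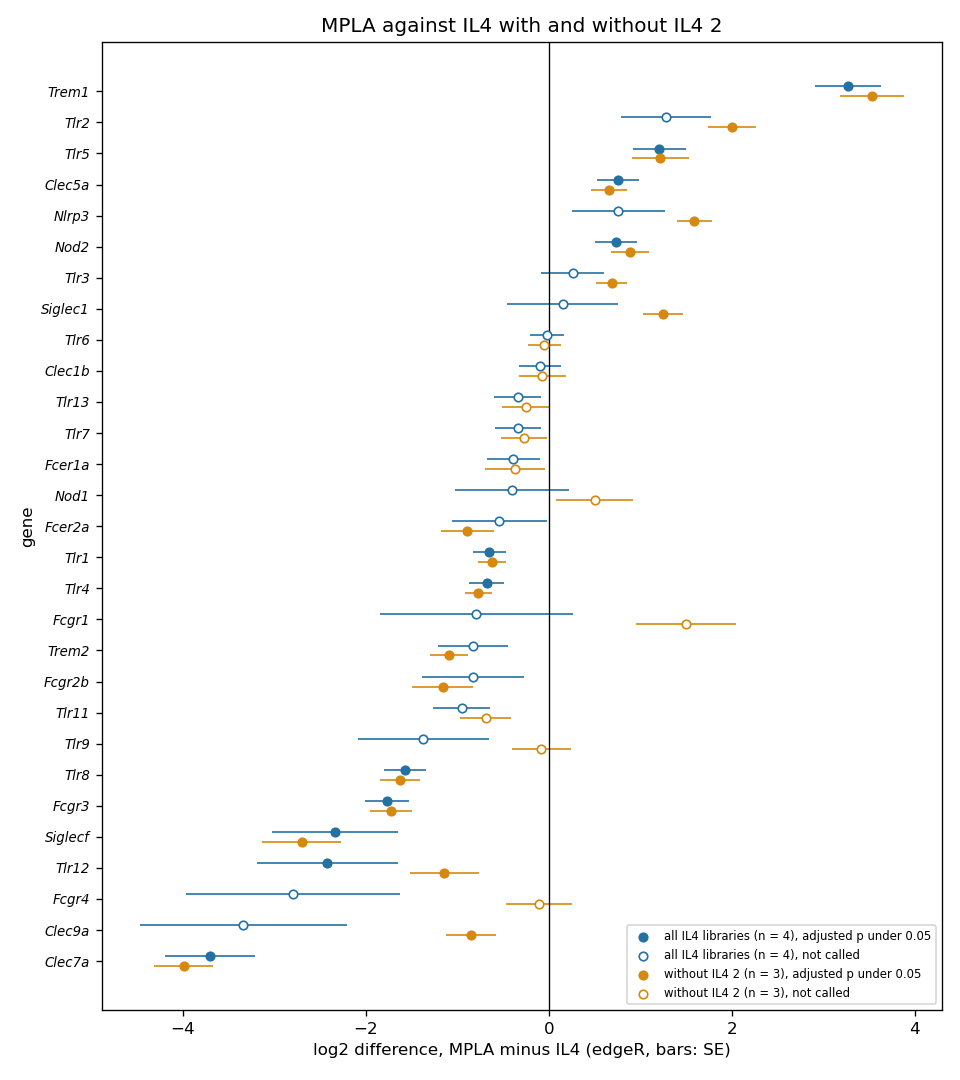
Log2 difference of MPLA minus IL4 for each of the 29 receptors (edgeR fit, bars are SE), in blue with all 4 IL4 libraries and in orange without IL4 2; filled points have an adjusted p under 0.05. The difference of Fcgr1 changes from -0.79 to 1.5, that of Fcgr4 from -2.80 to -0.11, and those of Clec7a, Trem1, Fcgr3 and Tlr8 stay within 0.30 of their value.

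Tlr6, Tlr7, Tlr11, Tlr13, Nod1, Clec1b and Fcer1a were not called between the standards with or without IL4 2. Tlr13, a receptor of bacterial ribosomal RNA, was 10.09 to 10.43 in MPLA and 10.09 to 11.09 in IL4. Nod1, the other peptidoglycan sensor, was 6.58 to 7.31 in MPLA and 5.64 to 8.65 in IL4, the highest value again in IL4 2. Tlr11, Clec1b and Fcer1a were at or near background: Tlr11 exceeded it in IL4 2 alone, and Fcer1a, the ligand-binding chain of the high-affinity IgE receptor, had 6 to 23 counts over all libraries. Fcer1a gave 11 to 23 counts in the MPLA libraries, 8 to 18 in the IL4 libraries, 6 to 14 in the eGFP-NP libraries and 19 to 23 in the IRF5-NP libraries, and had no measured level in any comparison. Of the 6 mast cell or basophil genes on the panel, Cpa3, Kit and Hdc never exceeded background, while Gata2 did in 11, Tpsb2 in 10 and Ms4a2 in 3 of 14 libraries. Fcer2a, the low-affinity IgE receptor, had 4 to 27 counts in the standards, all under background, but 49 and 56 in IRF5-NP 1 and 2 and 55 and 57 in eGFP-NP 1 and 2. It was at or under 12 counts in IRF5-NP 4, eGFP-NP 3 and eGFP-NP 4. The B cell gene Ms4a1 exceeded background in 1 of 14 libraries.

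No receptor was called between either NP group and IL4 by edgeR. In IRF5-NP against IL4, 0 of 29 receptors and 0% of all genes were called, and 3 receptors and 53 genes had an unadjusted p under 0.05; DESeq2 called 1 receptor, Tlr9. The median difference was -0.11 for the receptors and -0.14 for all genes. Tlr9 was lower in all 3 IRF5-NP libraries (5.45 to 5.74) than in all IL4 libraries (6.25 to 10.00), though under background in IRF5-NP 4, with a difference of -3.05 ± 0.96 (edgeR adjusted p = 0.508, DESeq2 adjusted p = 0.0142). Without IL4 2 that difference was -1.64 ± 0.47 (adjusted p = 0.528). Trem1 and Fcer1a, which also had a low unadjusted p, were under background in both groups. Tlr2 (-0.51 ± 0.67, adjusted p = 0.873) and Fcgr1 (-2.81 ± 1.41, adjusted p = 0.802) overlapped between the groups. Without IL4 2 the difference of Fcgr1 was -0.45 ± 0.79, and that of Tlr2 changed sign (0.30 ± 0.49).

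In eGFP-NP against IL4, 0 of 29 receptors and 0% of all genes were called by edgeR, with 3 receptors and 84 genes at an unadjusted p under 0.05; DESeq2 called 2 receptors, Tlr9 and Fcgr1. Tlr9 was 5.43 to 6.0 in eGFP-NP and differed by -2.99 ± 0.95 (edgeR adjusted p = 0.289, DESeq2 adjusted p = 0.0101), and by -1.55 ± 0.47 without IL4 2. Fcgr1 was 6.32 to 6.65 in eGFP-NP and 6.72 to 11.93 in IL4, without overlap (-3.83 ± 1.42, edgeR adjusted p = 0.368, DESeq2 adjusted p = 0.0126). Without IL4 2 that difference was -1.41 ± 0.67 (adjusted p = 0.536). Trem1 had 41 and 36 counts in eGFP-NP 1 and 2, above background, while eGFP-NP 3 and 4 and all IL4 libraries were under it (adjusted p = 0.333). Tlr2 differed by -1.26 ± 0.63 (adjusted p = 0.471), or -0.41 ± 0.38 without IL4 2, and the median over the receptors was -0.56 against -0.08 over all genes. The 2 NP comparisons share the IL4 libraries.

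The direct comparison of IRF5-NP with its control eGFP-NP addresses what the IRF5 and IKKβ cargo adds. No receptor was called (0 of 29; 0% of all genes), by edgeR or DESeq2, and 1 receptor and 42 genes had an unadjusted p under 0.05. That receptor was Fcer1a, which was under background in all libraries. Without overlap between the groups were 3 receptors, Fcer1a, Fcgr1 and Tlr3, against 14.7% of all genes. The IRF5-NP libraries had Fcgr1 levels of 6.75 to 8.28 and the eGFP-NP libraries of 6.32 to 6.65, a difference of 1.09 ± 0.60 (adjusted p = 0.83), and the highest value was that of IRF5-NP 4. Without that library it was 0.23, and the difference of Tlr2 was 0.27. Siglec1 exceeded background in 2 IRF5-NP libraries and 1 eGFP-NP library. Tlr2 differed by 0.81 ± 0.48 and Tlr3 by 0.32 ± 0.27 (adjusted p of 0.83 for these and for Siglec1). The spread within the groups was wide. For Fcgr3, IRF5-NP 1 and 2 and eGFP-NP 1-2 were at 12.08, 12.11 and 11.60, and IRF5-NP 4 and eGFP-NP 3 and 4 at 9.08, 9.67 and 9.62. The median difference over the receptors was 0.38, against 0.10 over all genes, in groups unequal in the stromal list. That list was near background in IRF5-NP 1 and 2, counted as 2 samples, and in eGFP-NP 1-2, counted as 1. Fitted as same-numbered pairs (next paragraph), the differences of Fcgr3 (0.93), Fcgr2b (0.80), Tlr8 (0.68) and Trem2 (0.21) became 0.10, -0.05, -0.24 and -0.57. Those of the other receptors also fell, except for Nod1, Tlr5, Tlr11 and Clec9a. The part of this imbalance in the median was not tested.

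Libraries of the same number deviated from their group means together in this comparison, and were therefore also compared as pairs, IRF5-NP 1 with eGFP-NP 1, 2 with 2 and 4 with 4. Libraries 1 and 2 of both groups had the stromal list near background and libraries 4 did not. Pairing by number and this split cannot be told apart. In all 3 pairs 6 receptors were higher in IRF5-NP (Fcgr1, Tlr2, Tlr3, Siglec1, Tlr11 and Fcer1a) and 5 were lower (Siglecf, Fcgr4, Nod1, Tlr7 and Trem2), together 37.9% of the receptors, and 42.7% of all genes moved one way in the 3 pairs. Tlr11 and Fcer1a were under background in all of these libraries, and Siglec1 in both libraries of the last pair (13 and 16 counts), so that its direction there was not measured. Siglecf was lower by the most, with differences of -1.14, -1.47 and -2.30, the last against a count of 7 that was under background. In the unpaired fit Siglecf differed by -0.87 ± 0.89 (adjusted p = 0.834 by edgeR), and the groups overlapped. With the replicate number as a block its difference was -1.59 ± 0.33 (unadjusted p = 0.00349, adjusted p = 0.253 by edgeR), and with the stromal mean in the fit it was -1.61 ± 0.22 and called (adjusted p = 0.0354 by edgeR), the only receptor called in that fit (background 2.52%). Fcgr1 was higher by 0.42, 0.44 and 1.79 in the pairs (adjusted p = 0.378). Tlr2 was higher by 0.08, 0.18 and 1.46, which in pairs 1 and 2 is little against its standard error of 0.30 in the blocked fit. Since both IRF5-NP 1 and 2 and eGFP-NP 1 and 2 were nearly identical, pairs 1 and 2 are close to 1 observation.

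Compared with MPLA, both NP groups had lower Trem1, Tlr2, Tlr9, Nlrp3 and Siglec1. In IRF5-NP against MPLA, 9 of 29 receptors were called (background 24.4%), 5 of them lower (background 12.9%) and 4 higher (background 11.5%). Trem1 was 4.44 to 4.67 in IRF5-NP, under background in every library, and 5.83 to 6.55 in MPLA (-1.68 ± 0.26, adjusted p = 0.00979). It was thus at least 1.89-fold higher in MPLA. Tlr9 (adjusted p = 0.00586) and Siglec1 (adjusted p = 0.0129), both under background in IRF5-NP 4, were at least 2.58-fold and 1.55-fold higher in MPLA. Tlr2 differed by -1.52 ± 0.38 (adjusted p = 0.031) and Nlrp3 by -1.17 ± 0.15 (adjusted p = 0.00586). Nlrp3, Tlr9 and Trem1 kept their calls without any 1 library, Siglec1 lost its call without IRF5-NP 2, and Tlr2 and Clec7a lost theirs without any 1 MPLA library, without IRF5-NP 1 and without IRF5-NP 2. With nearly identical libraries summed (background 0%), or with counts scaled to the macrophage list (background 1.99%), 0 receptors were called; scaling to the median gene, which moved the median difference of all genes by 0.96, called 17 as higher and 4 as lower (background 55% and 5.84%), and to housekeeping genes 5 and 4 (12.3% and 9.28%). When the mean of the stromal genes was added to the fit, 2 were called higher and 15 lower (background 31.2% and 30.8%), and Clec7a was among the lower, while Trem1 (adjusted p = 0.061) and Tlr2 (-0.52, adjusted p = 0.0855) were no longer called, nor were Tlr11 and Tlr12. The stromal mean was 12.51 to 12.67 in MPLA and 4.15, 4.00 and 10.95 in IRF5-NP 1, 2 and 4. Group and stromal level were thus nearly confounded, and that fit leaned on IRF5-NP 4, the library with the fewest counts. Fcgr1 was lower in all 3 libraries and missed the threshold (-1.73 ± 0.52, adjusted p = 0.0507). Without IRF5-NP 4 its difference was -2.60 ± 0.18 and was called (adjusted p = 1.4e-06), and with the stromal mean in the fit it was -0.43 (adjusted p = 0.189). Of the 4 receptors called higher, Fcer1a, Tlr11 and Tlr12 were under background in both groups and so have no measured level, and Clec7a (4.35 ± 1.08, adjusted p = 0.031) overlapped because of IRF5-NP 4.

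The receptors called as higher than in MPLA depended on IRF5-NP 4. Without it, 25 of 29 receptors were called (background 75.1%), 16 higher (background 34.6%) and 9 lower (background 40.5%), on 2 nearly identical libraries. Clec7a was then higher by 4.92 ± 0.12, Fcgr3 by 2.48 ± 0.13, Tlr8 by 2.44 ± 0.05 and Trem2 by 2.05 ± 0.08. With all libraries and the stromal mean in the fit, Clec7a (-1.62), Fcgr3 (-0.75), Tlr8 (-1.42) and Trem2 (-0.86) were instead called lower. In IRF5-NP 4 itself these genes were at or below the level of MPLA (Clec7a 6.06 against 6.65 to 7.18, Fcgr3 9.08 against 9.33 to 9.83, Tlr8 8.05 against 9.07 to 9.18, Trem2 10.29 against 10.87 to 11.16). This library had the lowest level of the macrophage list (9.18) and a stromal list mean of 10.95, and the part of these in its receptor levels was not tested.

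In eGFP-NP against MPLA, 9 receptors were called (background 19.6%), 3 higher (background 7.16%) and 6 lower (background 12.5%). Clec7a was 9.99 to 11.18 in eGFP-NP, above every MPLA library (3.57 ± 0.34, 11.9-fold, adjusted p = 0.000854). Siglecf was also higher (2.23 ± 0.52, adjusted p = 0.0274), with 1.33 ± 0.16 without eGFP-NP 1-2 and 0.98 with the stromal mean in the fit, both still called, and Clec9a was called though under background in both groups. With the stromal mean in the fit, 3 receptors were called higher, again these, and 16 lower (background 25.1% and 30.6%). Lower were Fcgr1 (-2.91 ± 0.21, adjusted p = 0.000331), Tlr2 (-2.42 ± 0.17, adjusted p = 0.000331), Nlrp3 (-1.99 ± 0.42, adjusted p = 0.0193), Trem1 (adjusted p = 0.0197), Siglec1 (adjusted p = 0.00435) and Tlr9 (-1.48 ± 0.19, adjusted p = 0.00328). Trem1 and Siglec1 exceeded background in eGFP-NP 1-2 alone and were at least 2.52-fold and 2.75-fold higher in MPLA. All 6 were lower in each eGFP-NP library than in each MPLA library. Clec7a, Fcgr1, Siglec1, Tlr2 and Tlr9 kept their calls without any 1 library. Nlrp3 and Trem1 lost theirs without MPLA 1, 2 or 4 or eGFP-NP 3 or 4, and Siglecf without any 1 MPLA library. With nearly identical libraries summed 0 receptors were called (background 0%), and scaling to the median gene, housekeeping genes and the macrophage list called 7 higher and 2 lower (background 29.4% and 5.97%), 2 higher and 7 lower (6.5% and 14.2%), and 4 higher and 6 lower (7.69% and 6.1%). Siglec1 counts were under background in eGFP-NP 3 and 4 (26 and 16), as they were in IRF5-NP 4 (13). Without eGFP-NP 1-2, 19 receptors were called (background 56.8%), 5 higher (background 26.9%) and 14 lower (background 29.8%), among them Clec5a (-1.66 ± 0.12), which in eGFP-NP 1-2 (10.44) was above every MPLA library (9.94 to 10.25). The 2 NP comparisons share the MPLA libraries.

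The 4 libraries in which the stromal list was near background, IL4 3, IRF5-NP 1, IRF5-NP 2 and eGFP-NP 1-2, had the 4 highest levels of 9 of the 29 receptors, against 9.95% of all genes, and the 4 highest means of the macrophage list (10.85 to 10.95). They were Fcer2a, Tlr4, Tlr6, Tlr7, Clec7a (11.18 to 11.85), Trem2 (12.42 to 13.24), Fcgr3 (11.60 to 12.11), Tlr8 (11.17 to 11.64) and Tlr13 (11.09 to 11.90). Fcer2a was under background in IL4 3 (27 counts against 34.9), so its rank in that library was not measured. The other 20 receptors did not have this order, among them Tlr2 with 5.94 to 6.81 in those libraries and 8.09 to 8.30 in MPLA. With counts scaled to the macrophage list, a setting chosen after seeing the data, Clec7a (-3.40), Fcgr3 (-1.50), Tlr8 (-1.29) and Trem1 were still called between MPLA and IL4, and Tlr4 (-0.45, adjusted p = 0.302) and Tlr1 (-0.44, adjusted p = 0.334) were not. The part of the macrophage share in the receptor levels was not tested otherwise.

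**Figure D5:**
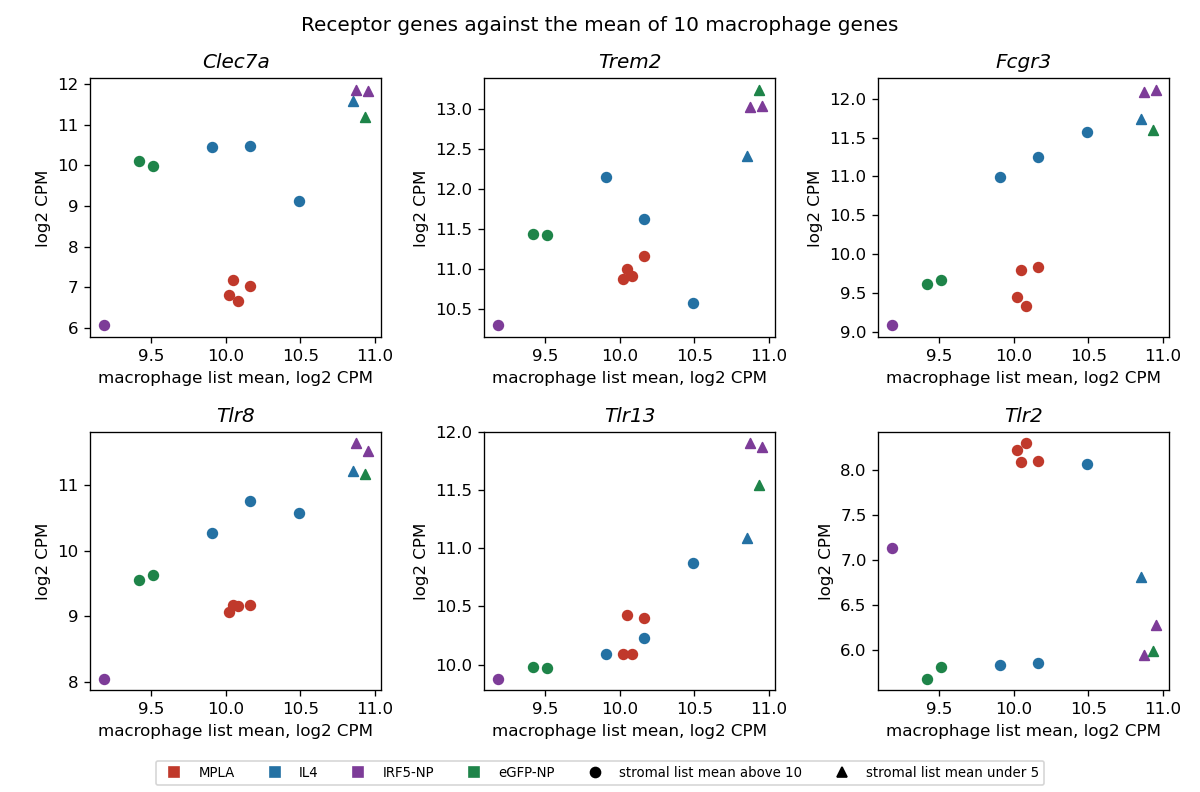
Level of 6 receptor genes (log2 CPM, vertical) against the mean level of the 10 macrophage genes (log2 CPM, horizontal) in 14 libraries, coloured by group; triangles are the 4 libraries whose stromal list mean was under 5. The triangles lie at the upper right for Clec7a, Trem2, Fcgr3, Tlr8 and Tlr13 but not for Tlr2.

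Among 10 genes that act next to these receptors, Cd14, the co-receptor that hands lipopolysaccharide to Tlr4, moved most. It had 8695 to 12993 counts in MPLA and 961 to 1505 in IL4, a difference of 2.53 ± 0.28 (adjusted p = 0.000702). Ripk2, the kinase downstream of Nod1 and Nod2, was also higher in MPLA (0.92 ± 0.23, adjusted p = 0.0225), Btk, a kinase of Fc and B cell receptor signalling, was lower (-0.60 ± 0.19, adjusted p = 0.049), and the other 7 (Cd180, Myd88, Traf6, Pycard, Casp1, Tyrobp, Syk) were not called. The adaptor Myd88, shared by most Toll-like receptors, differed by -0.02 ± 0.19 (adjusted p = 0.947), and Tyrobp, the adaptor of Trem1, Trem2 and Clec5a, by -0.74 ± 0.26 (adjusted p = 0.0644). Cd14 was lower than in MPLA in IRF5-NP (-1.98 ± 0.43, adjusted p = 0.0227) and in eGFP-NP (-2.90 ± 0.47, adjusted p = 0.00634), and Ripk2 in IRF5-NP (-0.94 ± 0.19, adjusted p = 0.018). Against IL4, Cd14 was not called in IRF5-NP (0.27 ± 0.46, adjusted p = 0.903) or in eGFP-NP (-0.48 ± 0.50, adjusted p = 0.772). Between the NP groups Ripk2 differed by -0.90 ± 0.37 (adjusted p = 0.83).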

How the data were processed

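RNA of 15 libraries of mouse BMDMs was measured with the nCounter Myeloid Innate Immunity panel. The deposited table used here holds the authors' raw probe counts (768 rows: 754 genes, 6 positive and 8 negative controls), not normalized; alignment does not apply to this assay. Libraries were grouped by their labels. Differences were tested on the counts with edgeR 4.0.16 (R 4.3.3; TMM scaling, quasi-likelihood test, two-sided, the 2 groups alone), Benjamini-Hochberg adjusted over 754 genes with a threshold of 0.05, and SE was taken from the difference and its F statistic. This replaced the per-gene tests of the study, which were run as an alternative. Levels are log2 CPM with a prior count of 2. A panel count is 1 molecule counted, and totals of 266169 to 1784833 set its precision; "at least" folds use the background, the mean + 2 SD of the negative controls, in place of unmeasured levels. eGFP-NP 1 and 2 were summed (14 libraries), and keeping them apart was an alternative. The scripts were tested on simulated counts.

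Alternatives were limma 3.58.1, DESeq2 1.42.0, other scalings, a background filter, 1 fit of all samples, a replicate block, a stromal covariate and each library left out. Deviations of same-numbered libraries correlated in every pair of IRF5-NP and eGFP-NP only (0.823, 0.821 and 0.818), so these were also compared as pairs; the numbers come from the labels, which do not say what they mark. Motifs were searched in RefSeq GRCm38.p6 windows of 250 bases.

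The members and lists were chosen with earlier results of these data known. Named genes are, for MPLA against IL4, all called members without overlap, elsewhere the 3 largest called increases and decreases without overlap or, with no call, the 3 smallest p, and always Tlr2, Fcgr1 and Fcer1a, leaving out genes under background in both groups; others named were chosen after their values were seen.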

Additional observations from a re-analysis of the deposited data

Results flagged for a closer look

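In 47 sets of a receptor and a group of 4 libraries, 3 had a highest or lowest library farther from the rest than a 95% limit allows, and chance gives about 1 in 20 sets. Clec9a was highest in IL4 2 with 252 counts, and the gap to the nearest IL4 library was 0.859 of the whole range. Siglec1 was lowest in MPLA 3 with 138 counts (0.845 of the range), in a group that spanned only 6.20 to 6.40 in log2 CPM. Tlr7 was lowest in IL4 1 with 463 counts (0.876 of the range). Groups of 3 were not tested.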

How the results depend on the processing

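For MPLA against IL4 (11 receptors called), the count was 7 with housekeeping scaling, 6 with limma on housekeeping-scaled values, 5 with 1 fit of all samples, 7 with the stromal covariate, 1 with nearly identical pairs summed, 4 to 19 with 1 library left out, and 6 and 1 with the methods' t-test after Benjamini-Hochberg and Benjamini-Yekutieli adjustment. For IRF5-NP against MPLA (9), it was 17 with DESeq2, 21 with median scaling, 0 with macrophage list scaling (chosen after seeing the data), 1 with the methods' t-test after Benjamini-Yekutieli adjustment, 0 with nearly identical pairs summed, 17 with the stromal covariate and 3 to 25 with 1 library left out. For eGFP-NP against MPLA (9), it was 4 with that t-test, 3 with 1 fit of all samples, 0 with nearly identical pairs summed, 19 with the stromal covariate and 5 to 19 with 1 library left out. DESeq2 called 1 receptor in IRF5-NP and 2 in eGFP-NP against IL4, and the stromal covariate gave 1 (Siglecf) between the NP groups; the other settings called 0 there. Fcgr1, MPLA minus IL4, turned from -0.79 to 0.52 with limma and with the methods' t-test, and ran from -1.22 to 1.5 with 1 library left out (1.5 without IL4 2); Tlr2, IRF5-NP minus IL4, turned from -0.51 to 0.05 with median scaling, 0.20 with macrophage list scaling and ran from -0.97 to 0.30 with 1 library left out (0.30 without IL4 2). The cause was not tested. Of 21 alternatives for MPLA against IL4, the calls of Trem1 and Clec7a held in 20, those of Fcgr3 and Tlr8 in 18, Tlr1 in 11, Tlr4 in 10, Tlr5 in 8, Clec5a and Siglecf in 7 and Nod2 in 5, and that of Tlr12 in 6 of 20, all with the same direction; DESeq2 gave no adjusted p for Fcgr1.

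With the replicate number as a block, 4 receptors were called for MPLA against IL4 (Trem1, Clec7a, Fcgr3, Tlr8), 0 for IRF5-NP against MPLA and 6 for eGFP-NP against MPLA, and Fcgr1, MPLA minus IL4, turned to 0.92. Over 21 same-numbered pairs the correlation of deviations ran from -0.816 to 0.823, and 7 pairs were above 0.1, so that outside the NP groups the numbers did not pair the libraries. Within the NP groups, nearly identical libraries keep the correlations from showing whether they did. In IRF5-NP 4, 16 of the 29 receptors exceeded background. Its background of 32.4 counts was inside the range of the other libraries, while its gene counts were the lowest (266169).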
